A study of Caenorhabditis elegans with 22 samples.

Results

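AMP-activated protein kinase (AMPK) is the energy sensor of eukaryotic cells, and arginine kinase is the enzyme that stores high-energy phosphate in invertebrates. The transcripts of both were followed here in Caenorhabditis elegans whose mitochondria were impaired by mutation or by paraquat, with and without a mutation in the cell death gene ced-4. The genes were taken by name: the AMPK alpha subunits aak-1 and aak-2, the beta subunits aakb-1 and aakb-2, the gamma subunits aakg-1, aakg-2, aakg-3, aakg-4 and aakg-5, and the arginine kinase argk-1. They are 10 of the 17118 genes on the array and are read by 15 of its 22548 probe sets that are not controls. Of these, 8 genes with 11 probe sets were tested, having 3 or more arrays at or above 3.68 on the log2 scale, the median of the table, among 12639 probe sets and 9647 genes in all. The gene aakg-1, with 3 probe sets, and the gene aakg-3, with 1, stayed below that level.

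Whole young adult hermaphrodites in the Bristol N2 background were compared in 7 groups, on 22 Affymetrix arrays. There were 3 arrays each of the mutants isp-1(qm150) and nuo-6(qm200), of wild type given 0.1 mM paraquat, of the mutant ced-4(n1162), of the double mutant isp-1(qm150) ced-4(n1162) and of the double mutant nuo-6(qm200);ced-4(n1162), and 4 arrays of untreated wild type. The eggs of every group were laid within 4 hours, and the adults were picked by hand. As stated in the submitters' design, the study looked for a pattern of expression common to isp-1, nuo-6 and paraquat. The gene isp-1 encodes the iron-sulphur protein of respiratory complex III, nuo-6 encodes a complex I subunit, paraquat is a herbicide that makes superoxide in mitochondria, and ced-4 encodes the worm's Apaf1-like activator of the caspase CED-3. Each mutant is a single allele, and no rescued strain or second allele was analysed here.

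An AMPK complex holds 1 catalytic alpha subunit, 1 beta subunit that acts as the scaffold, and 1 gamma subunit that binds AMP, ADP or ATP. When ATP falls, nucleotide binding to gamma and phosphorylation of alpha by upstream kinases switch the complex on, and it then turns fatty acid and protein synthesis down and catabolism up. Activity is thus set largely on the protein, which these arrays do not measure. In worms aak-2 is known for its part in long life under low energy, and argk-1 for its part in the long life of mutants lacking the S6 kinase RSKS-1. Arginine kinase moves phosphate between ATP and arginine, as creatine kinase does with creatine in vertebrates.

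Expression is given as the deposited log2 value of a probe set, so a difference of 1 is a doubling or halving. Differences come from 1 model over all 22 arrays (limma), each with its standard error (SE), and the threshold for a call was an adjusted p (Benjamini-Hochberg) of 0.05 over the 12639 probe sets tested. Each value is an average over the whole animal, in which fewer cells of a type and less RNA per cell cannot be told apart. The transcript of the mutated gene ced-4 averaged 5.72 ± 0.15 in the ced-4 single mutant and 5.70 ± 0.16 and 5.09 ± 0.16 in its double mutants with isp-1 and nuo-6 (SD, n = 3 each), against 7.62 ± 0.26 in wild type (SD, n = 4). The isp-1 transcript averaged 13.10 ± 0.13 in isp-1 (SD, n = 3) and 13.06 ± 0.06 in wild type (SD, n = 4), and the nuo-6 transcript 11.20 ± 0.08 in nuo-6 (SD, n = 3) and 10.92 ± 0.12 in wild type (SD, n = 4), so their levels do not check those labels. The array isp-1 replicate 1 correlated best with nuo-6 replicate 1 (r = 0.996 over all probe sets) and with the other isp-1 arrays at 0.986 and 0.989. In turn, nuo-6 replicate 1 correlated best with isp-1 replicate 1, and with the other nuo-6 arrays at 0.991 and 0.995. Whether either array carries the wrong label cannot be settled from the files. This bears on every isp-1 mean and, if the labels were exchanged, on every nuo-6 mean. Principal component 2 set wild type replicate 1, at -5.21, apart from the other wild type arrays, at -49.05, -61.61 and -54.24, and component 1 set isp-1 ced-4 replicate 1, at 38.40, apart from 88.46 and 96.16. For the main probe set of each member, the arrays without which a call was lost or gained stand beside the results below. No such check is given for second probe sets or for genes that are not members, so their calls may also rest on single arrays.

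**Figure D1:**
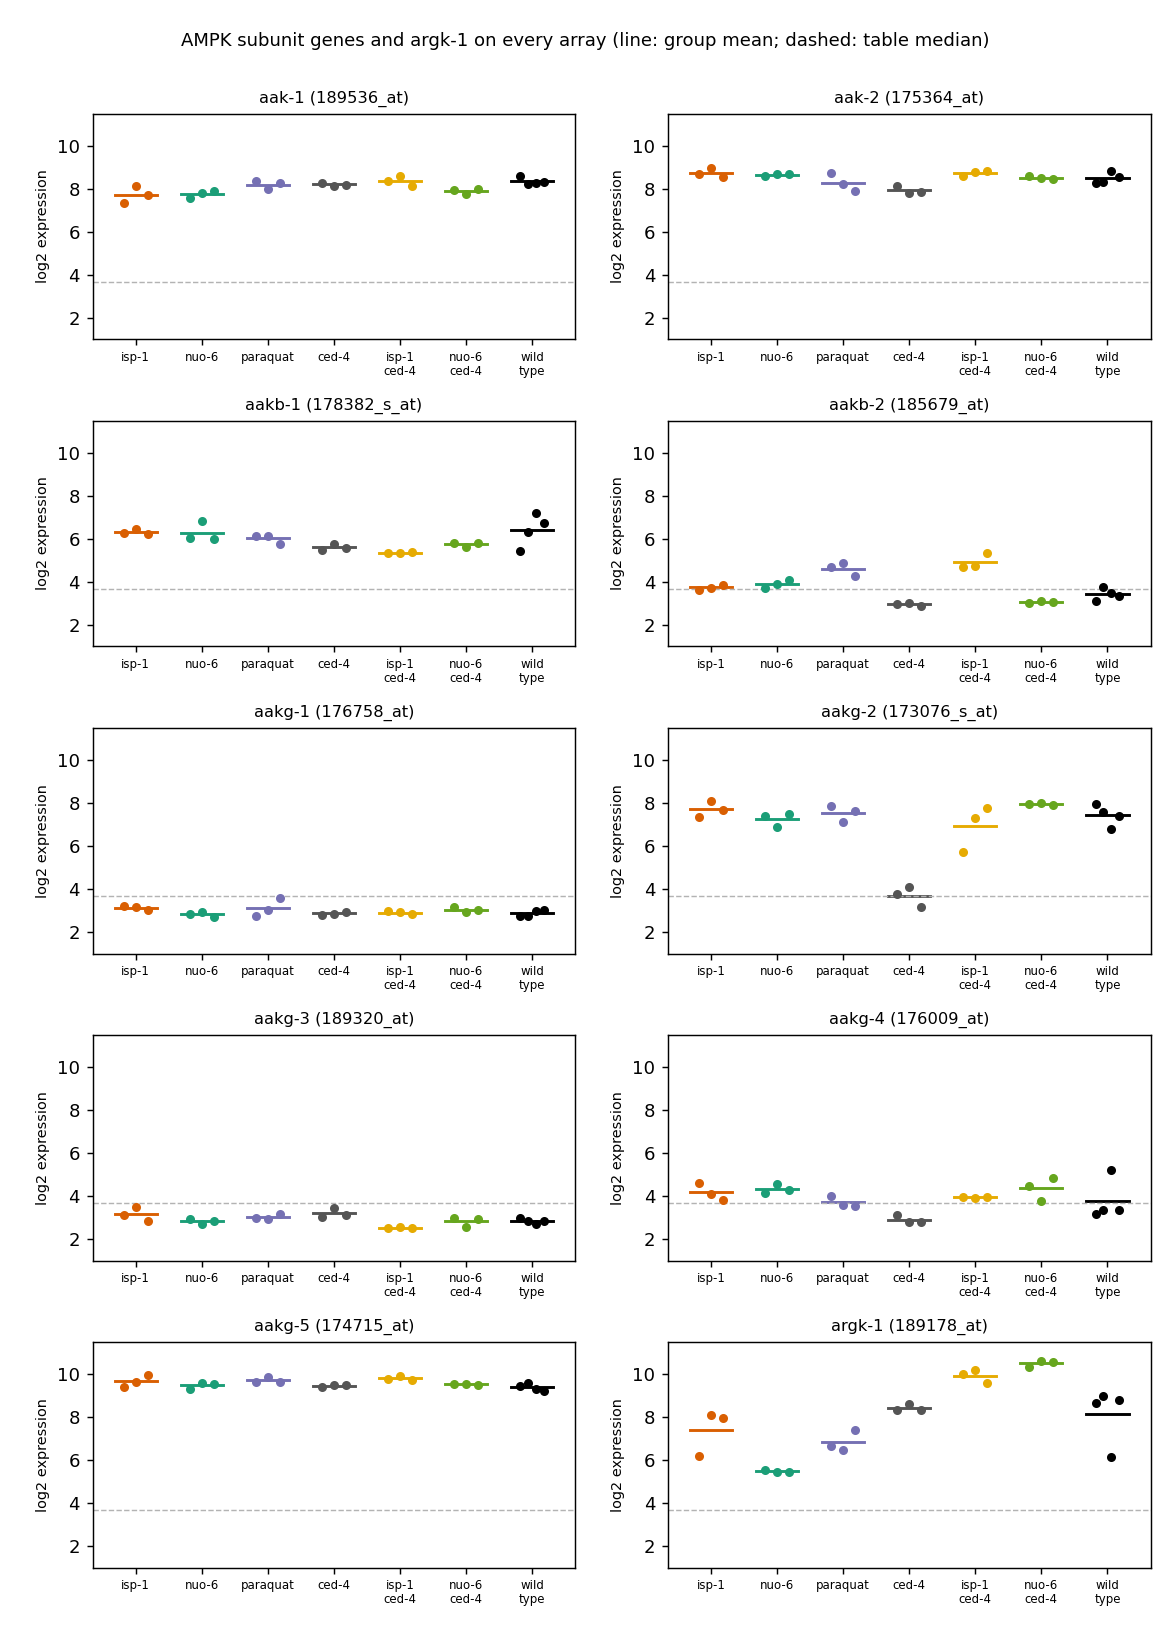
Log2 expression (vertical axis) of the probe set that represents each of the 10 genes on all 22 arrays, by group (horizontal axis); points are arrays, lines are group means and the dashed line is the median of the whole table, 3.68. The widest spread of group means belongs to argk-1, from 5.47 in nuo-6 to 10.49 in nuo-6 ced-4, and aakg-2 drops to the dashed line in ced-4 alone.

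The members differed greatly in how far they moved. In the probe set that represents each gene, there lay between the highest and the lowest of the 7 group means 5.02 on the log2 scale for argk-1, 4.28 for aakg-2, 1.96 for aakb-2, 1.47 for aakg-4, 1.07 for aakb-1, 0.81 for aak-2, 0.62 for aak-1 and 0.42 for aakg-5. The second probe sets gave 2.33 for aakg-2, 1.41 for aak-2 and 1.00 for aakg-5. The widest ranges thus sat in 1 gamma subunit and in arginine kinase, and the width for aak-2 and aakg-5 depended on the probe set.

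The catalytic subunit gene aak-1 was lower in both mitochondrial mutants than in wild type. Its values were 7.35, 8.12 and 7.71 in isp-1 and 7.56, 7.80 and 7.92 in nuo-6, against 8.61, 8.21, 8.27 and 8.30 in wild type. No array of either mutant reached the lowest wild type array. The difference was -0.62 in isp-1 (SE 0.16, adjusted p = 0.0119) and -0.59 in nuo-6 (adjusted p = 0.0107). Without isp-1 replicate 1 the isp-1 difference was -0.43 and was no longer called (as when only the groups compared were fitted), and without nuo-6 replicate 1 the nuo-6 difference was -0.49 and was not called either. Paraquat gave 8.35, 7.98 and 8.26, values that overlap those of wild type, and the mean of isp-1 and nuo-6 lay below paraquat by a difference of -0.45 (adjusted p = 0.0215), a call lost without paraquat replicate 1 or 3 (between -0.56 and -0.36 with an array left out). In the ced-4 background it stood at 8.34, 8.59 and 8.11 in isp-1 ced-4, against 7.35, 8.12 and 7.71 in isp-1, a difference of 0.62 (adjusted p = 0.0119) that was not called without isp-1 replicate 1 or isp-1 ced-4 replicate 2 (0.43 and 0.81 being the extremes with an array left out). In nuo-6 ced-4 it was 7.93, 7.77 and 7.97, close to nuo-6, with a difference of 0.13 between them that was not called. Relative to wild type nuo-6 ced-4 was lower by a difference of -0.46 (adjusted p = 0.0416), a call lost when wild type replicate 1 or 4 or any nuo-6 ced-4 array was left out, with values between -0.50 and -0.37. The interaction of isp-1 with ced-4, that is, the effect of isp-1 in ced-4 animals minus its effect in animals with a normal ced-4, was 0.76 (adjusted p = 0.0355), a call lost without any single one of wild type replicate 1, isp-1 replicates 1 and 3, isp-1 ced-4 replicate 2 and the 3 ced-4 arrays, with values between 0.57 and 0.96. The ced-4 mutant alone, at 8.28, 8.15 and 8.19, overlapped wild type.

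The second catalytic subunit gene, aak-2, whose product is the alpha subunit most studied in worm lifespan, was lowest in ced-4. Its main probe set read 8.14, 7.79 and 7.87 in ced-4, against 8.28, 8.30, 8.82 and 8.53 in wild type, and no ced-4 array reached a wild type one. That difference of -0.55 (SE 0.17, adjusted p = 0.0365) was lost when any of 4 arrays was left out, namely wild type replicates 3 and 4 and ced-4 replicates 2 and 3, and was then between -0.65 and -0.44. With a mitochondrial mutation added to ced-4 the transcript overlapped wild type: isp-1 ced-4 read 8.60, 8.77 and 8.84, while nuo-6 ced-4 read 8.59, 8.49 and 8.47. All 6 double mutant arrays lay above all ced-4 arrays. The difference from the ced-4 single mutant was 0.81 for isp-1 ced-4 (adjusted p = 0.00146), which stayed called with any 1 array left out, and 0.59 for nuo-6 ced-4 (adjusted p = 0.0344), which was lost without ced-4 replicate 2 or 3 or any nuo-6 ced-4 array, between 0.51 and 0.69. Neither isp-1 (8.68, 8.99 and 8.56) nor nuo-6 (8.59, 8.68 and 8.70) was called against wild type. Paraquat read 8.74, 8.21 and 7.92, and the mean of isp-1 and nuo-6 lay above it by 0.41 (adjusted p = 0.0423), a call lost without any single one of isp-1 replicates 1 and 2, paraquat replicates 2 and 3 and the 3 nuo-6 arrays, with values between 0.22 and 0.63.

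A second probe set of aak-2 gave another picture. It read 5.93, 5.57 and 4.52 in isp-1, 5.75, 5.19 and 5.33 in nuo-6 and 5.92, 5.14 and 6.10 in paraquat, against 4.19, 4.87, 5.39 and 4.98 in wild type. In this probe set paraquat was higher than wild type by 0.86 (adjusted p = 0.0348), where the main probe set gave -0.19 and no call. Both double mutants were lower than their single mutants, by differences of -0.93 in isp-1 ced-4 (adjusted p = 0.0412) and -0.91 in nuo-6 ced-4 (adjusted p = 0.0485), where the main probe set gave -0.003 and -0.14. The low level in ced-4 was not called in it, with a difference of -0.55 from wild type (adjusted p = 0.266), and neither were the double mutants relative to ced-4, with 0.10 for isp-1 ced-4 (adjusted p = 0.819) and 0.20 for nuo-6 ced-4 (adjusted p = 0.742). The files do not say which part of the transcript either probe set reads, so statements on aak-2 hold for 1 probe set and not for the gene.

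**Figure D2:**
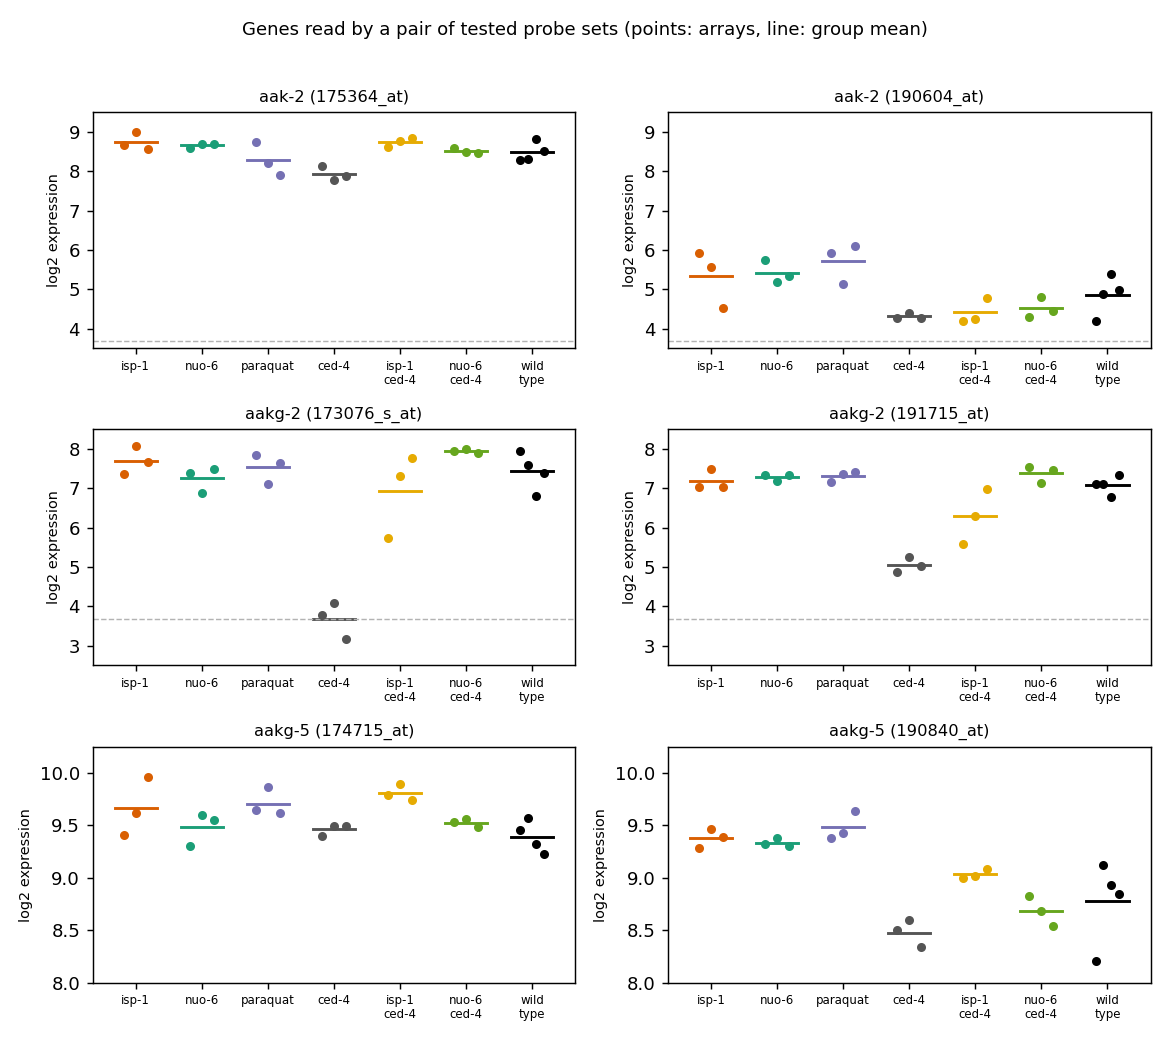
Log2 expression (vertical axis, scaled by gene) of the 3 genes read by a pair of tested probe sets, by group (horizontal axis), with arrays as points and group means as lines. Both probe sets of aakg-2 are lowest in ced-4, whereas in the double mutants the main probe set of aak-2 overlaps the single mutants and the second one lies lower, by -0.93 and -0.91.

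Of the beta subunits, aakb-2 was higher under paraquat and in isp-1 ced-4. It read 4.70, 4.89 and 4.27 under paraquat, against 3.14, 3.74, 3.49 and 3.35 in wild type, and the arrays did not overlap. The difference was 1.19 (SE 0.17, adjusted p = 3.07e-05), a 2.28-fold rise. In isp-1 ced-4 it read 4.70, 4.73 and 5.36, above every array of isp-1 (3.65, 3.73 and 3.87), of ced-4 (2.99, 3.04 and 2.89) and of wild type. Those differences were 1.19 from isp-1 (adjusted p = 0.00033), 1.96 from ced-4 (adjusted p = 2.41e-07) and 1.50 from wild type (adjusted p = 2.77e-06). The double mutant with nuo-6 went the other way, with 3.03, 3.12 and 3.07 in nuo-6 ced-4 against 3.73, 3.91 and 4.07 in nuo-6, a difference of -0.83 (adjusted p = 0.00281). The interaction with ced-4 was 1.64 for isp-1 (SE 0.26, adjusted p = 0.000207) and -0.38 for nuo-6, which was not called. These calls of aakb-2 stayed with any 1 array left out. In nuo-6 relative to wild type the difference of 0.47 (adjusted p = 0.0451) was lost without wild type replicate 1, 3 or 4 or nuo-6 replicate 2 or 3, between 0.38 and 0.58, and under 7 other settings. The ced-4 mutant, at -0.46 without a call (adjusted p = 0.0845), was called at -0.55 without wild type replicate 1. The gene lies near the median of the table, with 12 of 22 arrays at or above it and 0 of the ced-4 arrays, so the sizes are uncertain.

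Sperm and oocyte markers moved under paraquat and in isp-1 ced-4, where aakb-2 was higher. Of all tested probe sets, 26.4% were higher and 15.1% lower under paraquat. In isp-1 ced-4 relative to wild type the shares were 29.2% and 21.1%. Of 15 sperm genes tested, 14 were lower and 1 higher under paraquat, and 14 were lower in isp-1 ced-4 than in wild type, and their mean level lay between 5.48 and 5.79 on the paraquat arrays and between 4.33 and 6.36 on the isp-1 ced-4 arrays, against 7.66 to 8.43 on the wild type arrays. Of 16 oocyte and early embryo genes, 16 were higher under paraquat and 14 in isp-1 ced-4, with mean levels of 11.88 to 11.97 under paraquat and 11.55 to 11.82 in isp-1 ced-4, against 10.89 to 11.37 in wild type. In nuo-6 ced-4, where aakb-2 was low, 11 of the 16 oocyte genes were lower than in nuo-6 (18.7% of all probe sets were) and none was higher. In isp-1, where aakb-2 was not called, and in nuo-6, 7 of 15 sperm genes were lower (9.63% and 14.8%) and 1 higher (12.3% and 18%). Of 11 germline markers, 5 were higher and 1 lower under paraquat, and 6 higher and 2 lower in isp-1 ced-4. In nuo-6 ced-4 relative to nuo-6, 2 germline markers were higher (11.2%) and 1 lower. The lowest value in the table is 0.93, so no marker is at 0. Their part in the aakb-2 result was not tested. The genes whose profile over the 22 arrays was most like that of aakb-2 were hmg-4, a subunit of the histone chaperone FACT (Pearson r = 0.952), fem-2, a phosphatase of the sex determination pathway (r = 0.944), Y75D11A.3 (r = 0.942), C16C2.4 (r = 0.940) and parp-1, a poly(ADP-ribose) polymerase (r = 0.937). These correlations describe the same arrays and groups and carry no test.

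The other beta subunit, aakb-1, was low in isp-1 ced-4. Its values there were 5.34, 5.34 and 5.41, against 5.45, 6.32, 7.22 and 6.74 in wild type, and against 6.27, 6.45 and 6.21 in isp-1. The 3 arrays of isp-1 ced-4 lay below every array of the other 6 groups. The difference was -1.07 from wild type (SE 0.28, adjusted p = 0.00469) and -0.95 from isp-1 (adjusted p = 0.0229), the second of which was lost without isp-1 replicate 2 or isp-1 ced-4 replicate 2 or 3. The difference from wild type was not called when only these groups were fitted. The wild type arrays spread widely and replicate 1 was the lowest of them. Without it, ced-4 (5.46, 5.78 and 5.59) was called lower by a difference of -1.15, against -0.82 with it, and nuo-6 ced-4 (5.81, 5.64 and 5.82) by -1.0, against -0.68 with it. Paraquat (6.15, 6.16 and 5.78) was likewise called at -0.73 without that array, against -0.40 with it. In isp-1 and in nuo-6 the differences from wild type were -0.12 and -0.16 and were not called. Body wall muscle markers were also low in isp-1 ced-4. Of 10 tested, 6 were lower and 1 higher than in wild type, and 7 were lower and 1 higher than in isp-1, with a mean level of 10.62 to 10.77 on the isp-1 ced-4 arrays, against 10.99 to 11.19 in isp-1 and up to 11.25, with a mean of 11.11, in wild type. Of all probe sets, 21.1% were lower and 29.2% higher in isp-1 ced-4 than in wild type. Relative to isp-1 the shares were 17.2% and 16%. Other markers moved in the same comparisons. Of 15 sperm markers 14 were lower than in wild type and 14 lower than in isp-1, and of 16 oocyte markers 14 and 6 were higher. In ced-4 0 of the 10 muscle markers were lower than in wild type (9.3% of all probe sets were). In nuo-6 ced-4 2 were lower (17.8%), and 0 were higher in either group (6.51% and 14.2%). The part of these markers in the aakb-1 result was not tested. The probe set of aakb-1 is of a kind that may bind more than 1 transcript.

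Among the gamma subunits, which bind the adenine nucleotides, aakg-2 fell sharply in the ced-4 single mutant. Its main probe set read 3.79, 4.08 and 3.16 in ced-4, against 7.94, 7.60, 6.80 and 7.39 in wild type. The highest ced-4 array lay far below the lowest wild type array. The difference was -3.75 (SE 0.38, adjusted p = 5.91e-07), a 13.5-fold fall and the 2nd largest fall among 9647 tested genes in this comparison. The mean in ced-4, 3.68, equals the median of the table, so the size of the fall is uncertain. A second probe set gave 4.88, 5.27 and 5.03 in ced-4, against 7.11, 7.11, 6.79 and 7.35 in wild type, a difference of -2.03 (SE 0.23, adjusted p = 3.42e-06). In this second probe set the fall was 4.08-fold. The main probe set, unlike the second, is of a kind that may also bind other transcripts.

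With a mitochondrial mutation beside ced-4, aakg-2 was high again. In nuo-6 ced-4 the main probe set read 7.95, 8.01 and 7.90, against 3.79, 4.08 and 3.16 in ced-4, a difference of 4.28 (adjusted p = 1.54e-06) that ranked 19th from the largest rise. In isp-1 ced-4 it read 5.73, 7.31 and 7.77, a difference of 3.26 from ced-4 (adjusted p = 5.49e-06) that ranked 39th. Every double mutant array was above every ced-4 array in both probe sets. The 3 nuo-6 ced-4 arrays lay close together, while isp-1 ced-4 replicate 1 was below every wild type array. The second probe set showed isp-1 ced-4 at 5.58, 6.31 and 6.98, below wild type by a difference of -0.80 (adjusted p = 0.00809) and below isp-1 by -0.91 (adjusted p = 0.00965), whereas the main probe set gave -0.49 and -0.76 without a call (the second was called at -1.18 without isp-1 ced-4 replicate 3).

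In animals with a normal ced-4, no effect of mitochondrial impairment on aakg-2 was called. Its main probe set read 7.37, 8.07 and 7.66 in isp-1, 7.38, 6.88 and 7.50 in nuo-6 and 7.86, 7.10 and 7.65 under paraquat, all overlapping wild type. The differences were 0.27, -0.18 and 0.11, each with an SE of 0.38, and none was called. The interaction with ced-4 was 2.99 for isp-1 (SE 0.55, adjusted p = 0.00112) and 4.45 for nuo-6 (SE 0.55, adjusted p = 0.000186), and in the second probe set 1.12 (SE 0.34, adjusted p = 0.0296) and 2.12 (SE 0.34, adjusted p = 0.00182). The calls of the main probe set for aakg-2 in ced-4, in both double mutants against ced-4 and in both interactions stayed with any 1 array left out and under every other setting tried.

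Hypodermis markers moved with ced-4 in part. Of 10 tested, 5 were higher and 1 lower in ced-4 than in wild type, and their mean level lay between 9.56 and 9.73 on the ced-4 arrays and between 9.78 and 9.83 on the nuo-6 ced-4 arrays, against 7.69 to 8.46 on the wild type arrays. On the isp-1 ced-4 arrays it lay between 7.82 and 8.12, and 6 of the 10 markers were lower and 2 higher there than in ced-4. Of all probe sets, 6.51% were higher and 9.3% lower in ced-4 than in wild type. In isp-1 ced-4 relative to ced-4, 20.9% were lower and 31.2% higher. The part of the hypodermis markers in the aakg-2 result was not tested. The profiles most like that of aakg-2 over the 22 arrays were those of dhs-19, a short-chain dehydrogenase (r = 0.812), F13H8.3 (r = 0.792), the collagen col-80 (r = 0.769), F09C8.1 (r = 0.753) and acs-2, a fatty acyl-CoA synthetase of fat oxidation (r = 0.742). The values of acs-2 were 5.15, 5.26 and 5.69 in ced-4, against 7.38, 9.26, 10.63 and 9.84 in wild type, a difference of -3.91 (adjusted p = 8.5e-05), and it rose by 5.29 in isp-1 ced-4 and by 4.85 in nuo-6 ced-4 relative to ced-4. Within groups its correlation with aakg-2 was -0.531, so the likeness lies between group means.

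**Figure D3:**
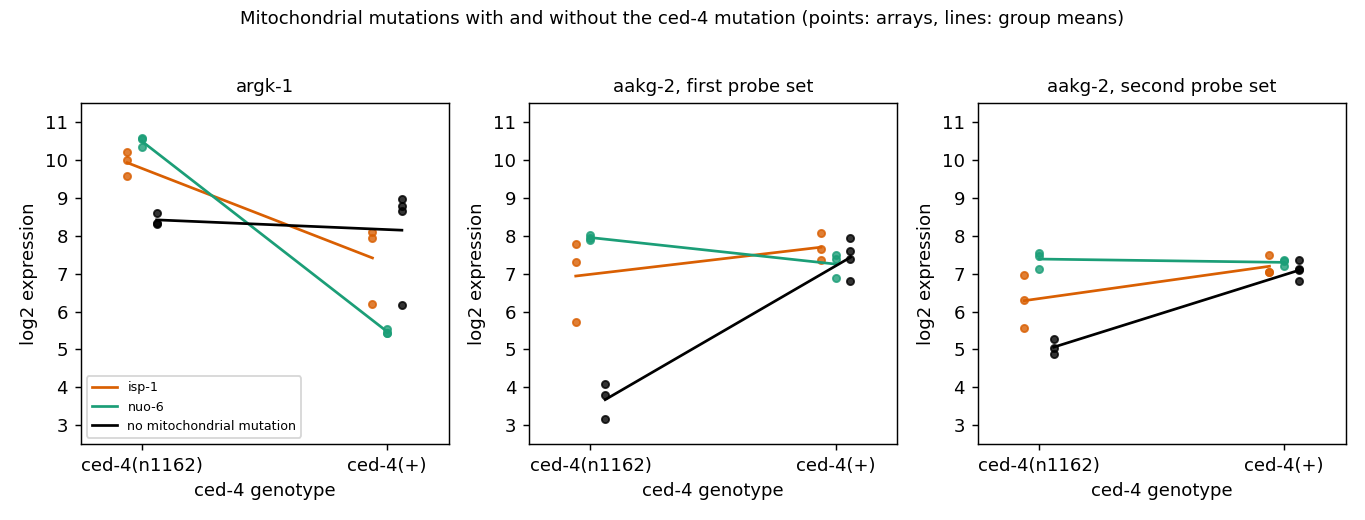
Log2 expression (vertical axis) of argk-1 and of both probe sets of aakg-2 with the ced-4(n1162) mutation (left of each panel) and without it (right); points are arrays, lines join group means, and colours mark isp-1, nuo-6 and no mitochondrial mutation. The mean of the main aakg-2 probe set is 3.68 in ced-4 and 7.43 in wild type while isp-1 and nuo-6 animals stay high with or without ced-4, and the argk-1 line of nuo-6 joins 10.49 with ced-4 to 5.47 without it.

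The gamma subunit gene aakg-4 was also lowest in ced-4, at 3.10, 2.77 and 2.79. Those arrays lay below all isp-1 ced-4 arrays (3.94, 3.92 and 3.98) and all nuo-6 ced-4 arrays (4.47, 3.79 and 4.82). The double mutants differed from ced-4 by 1.06 (adjusted p = 0.0306) and 1.47 (adjusted p = 0.014), calls that rest on single arrays. The first was lost without ced-4 replicate 2 or 3 or any isp-1 ced-4 array, between 1.0 and 1.16, and the second without ced-4 replicate 2 or nuo-6 ced-4 replicate 1 or 3, between 1.24 and 1.76. Against wild type no group was called, though ced-4 was called at -1.08, against -0.87 with all arrays, without wild type replicate 1. The wild type arrays read 3.14, 3.35, 5.20 and 3.34, and without replicate 3, the high one, the gene was called higher in isp-1 (0.90), nuo-6 (1.05) and their double mutants with ced-4 (0.67 with isp-1, 1.08 with nuo-6), against 0.42, 0.57, 0.18 and 0.60 with it. The level is close to the table median, with 14 of 22 arrays at or above it and 0 of the ced-4 arrays.

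The remaining gamma subunit that passed the filter, aakg-5, moved little in its main probe set. Its main probe set read 9.79, 9.90 and 9.74 in isp-1 ced-4, against 9.45, 9.57, 9.32 and 9.23 in wild type and 9.40, 9.49 and 9.49 in ced-4. The groups did not overlap, and the differences were 0.42 (adjusted p = 0.0106) and 0.35 (adjusted p = 0.0374), beside medians over all tested probe sets of 0.12 and 0.17 in the same comparisons. The first call was lost without isp-1 ced-4 replicate 2 and the second without any single one of its 6 arrays, with extremes of 0.36 and 0.48 and of 0.31 and 0.38, and both were lost after cyclic loess. The first was also lost when only these groups were fitted. It was not called in the second probe set, at a mean of 9.03 in isp-1 ced-4 against 8.78 in wild type. Under paraquat it read 9.64, 9.87 and 9.61, a difference of 0.31 that just missed the threshold (adjusted p = 0.0531) and was called at 0.37 without wild type replicate 2. With all arrays kept, the gene was also called there under the filter of 5, median centring and the trend and robust options. In isp-1 it read 9.41, 9.62 and 9.96, and the difference of 0.27 (adjusted p = 0.135) was called at 0.40 without isp-1 replicate 1. The second probe set rose in all 3 conditions that impair mitochondria, with 9.28, 9.47 and 9.39 in isp-1, 9.32, 9.38 and 9.30 in nuo-6 and 9.38, 9.43 and 9.63 under paraquat, against 8.21, 9.12, 8.93 and 8.84 in wild type. No array of the 3 conditions was below the highest wild type array. The differences were 0.60 (adjusted p = 0.0111), 0.56 (adjusted p = 0.0116) and 0.70 (adjusted p = 0.00152), where the main probe set gave 0.27, 0.09 and 0.31 without a call. In the ced-4 background the second probe set was lower in nuo-6 ced-4 than in nuo-6 by a difference of -0.65 (adjusted p = 0.00753), and the main one gave 0.04.

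The genes aakg-1 and aakg-3 stayed under the table median on all 22 arrays. The 3 probe sets of aakg-1 averaged 2.96, 2.18 and 2.15 and that of aakg-3 averaged 2.91 over all arrays. Whether they are transcribed in these animals cannot be read from such values.

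Arginine kinase, argk-1, showed the widest range of all. It read 6.20, 8.10 and 7.95 in isp-1, 5.54, 5.44 and 5.43 in nuo-6 and 6.64, 6.49 and 7.41 under paraquat, against 8.66, 8.98, 6.17 and 8.79 in wild type. In the ced-4 background argk-1 read 10.01, 10.20 and 9.58 with isp-1 and 10.34, 10.58 and 10.56 with nuo-6, against 8.34, 8.59 and 8.32 in the ced-4 single mutant. The order of the means was nuo-6 ced-4 (10.49), isp-1 ced-4 (9.93), ced-4 (8.42), wild type (8.15), isp-1 (7.42), paraquat (6.84) and nuo-6 (5.47). Neighbours in that order overlapped array by array, except that nuo-6 ced-4 lay wholly above isp-1 ced-4, isp-1 ced-4 wholly above ced-4, and paraquat wholly above nuo-6.

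Without the ced-4 mutation argk-1 fell in nuo-6. The difference from wild type was -2.68 (SE 0.53, adjusted p = 0.00102), a 6.4-fold fall and the 41st largest among 9647 genes, and it was between -3.34 and -2.40 with any 1 array left out. In isp-1 the difference was -0.73 (adjusted p = 0.338) and under paraquat -1.3 (adjusted p = 0.0548). Neither was called, and both outcomes turned on single arrays. Wild type replicate 3, at 6.17, was far below the other 3 wild type arrays, and without it isp-1 was called lower by a difference of -1.39 and paraquat by -1.96. Paraquat was also called without paraquat replicate 3, and with all arrays kept after cyclic loess. The isp-1 group holds replicate 1 at 6.20, the array that correlates best with a nuo-6 array, and without that array the isp-1 difference was -0.12. Between nuo-6 and isp-1 the difference was -1.94 (adjusted p = 0.17), and -2.55 and called without isp-1 replicate 1.

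In the ced-4 background argk-1 was higher with either mitochondrial mutation. All 6 double mutant arrays lay above all 16 arrays of the other groups. In nuo-6 ced-4 the transcript rose by 5.02 over nuo-6 (SE 0.56, adjusted p = 3.45e-06), a 32.5-fold difference, and by 2.07 over ced-4 (adjusted p = 0.0159) and 2.35 over wild type (adjusted p = 0.00238). In isp-1 ced-4 it rose by 2.51 over isp-1 (adjusted p = 0.00283), by 1.51 over ced-4 (adjusted p = 0.0318) and by 1.78 over wild type (adjusted p = 0.00919), the last of which was 1.12 without wild type replicate 3. The last was not called when only these groups were fitted. The call of nuo-6 ced-4 over ced-4 was lost without ced-4 replicate 1 or 3 or nuo-6 ced-4 replicate 2, between 2.03 and 2.16. That of isp-1 ced-4 was lost after cyclic loess and without any ced-4 array or isp-1 ced-4 replicate 1 or 2, between 1.37 and 1.68. The ced-4 mutation alone differed from wild type by 0.27 (adjusted p = 0.782), and by -0.39 without wild type replicate 3, with no call in either case. The interaction with ced-4 was 4.75 for nuo-6 (SE 0.77, adjusted p = 0.00188), ranking 2nd from the largest among 9647 genes, and between 4.48 and 5.41 with any 1 array left out. For isp-1 it was 2.24 (SE 0.77, adjusted p = 0.0497), a call that was lost without any single one of its 13 arrays other than wild type replicate 3 and isp-1 replicates 2 and 3, between 1.63 and 2.90.

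Tissue markers also differed between nuo-6 ced-4 and nuo-6, where argk-1 differed most. Of 10 hypodermis markers 6 were higher and 1 lower, with a mean level of 9.78 to 9.83 on the nuo-6 ced-4 arrays, against 8.04 to 8.17 on the nuo-6 arrays. Of 16 oocyte and early embryo markers 11 were lower and 0 higher, with a mean level of 10.87 to 10.92 in nuo-6 ced-4, against 11.28 to 11.49 in nuo-6, and 3 of 15 sperm markers were higher. In isp-1 ced-4 relative to isp-1, 1 hypodermis marker was higher and 2 were lower, 6 oocyte markers were higher, and 14 of 15 sperm markers were lower. Of all probe sets 16% were higher and 17.2% lower in that comparison. In nuo-6 ced-4 relative to nuo-6 the shares were 11.2% and 18.7%. The part of these markers in the argk-1 results was not tested.

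One gene followed argk-1 closely across the arrays. It was cth-1, which encodes cystathionine gamma-lyase, the enzyme that makes cysteine from cystathionine, with a Pearson r of 0.926 over the 22 arrays and 0.917 after the group means were removed. In the WBcel235 annotation the same cth-1 is the protein-coding gene next to argk-1. Its values were 5.35, 9.48 and 9.25 in isp-1 and 5.59, 6.02 and 5.69 in nuo-6, against 10.60, 10.73, 7.79 and 10.71 in wild type. The low wild type array and the low isp-1 array are the same as for argk-1. They lie far from their groups in both genes, and the correlations without them were not computed. In nuo-6 the difference from wild type was -4.19 (adjusted p = 0.00059), and nuo-6 ced-4 rose by 5.47 over nuo-6 (adjusted p = 8.58e-05). Unlike argk-1, cth-1 was not called in either double mutant relative to ced-4 (differences of 0.54 with isp-1 and 1.49 with nuo-6). The next genes in likeness to argk-1 were H20E11.2 (r = 0.873), the C-type lectin gene clec-258 (r = 0.860), the chemoreceptor gene str-7 (r = 0.855) and cls-2, a microtubule-binding CLASP protein (r = 0.789), and within groups their correlations were between 0.471 and 0.519.

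**Figure D4:**
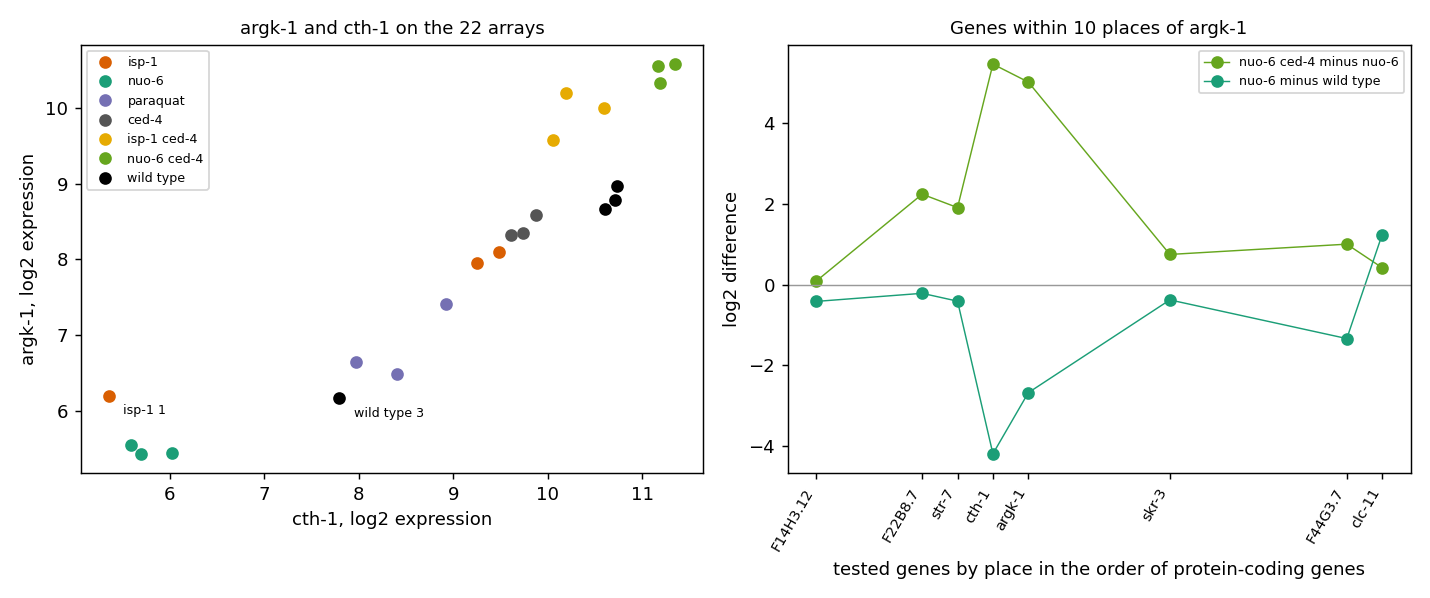
Left, log2 expression of argk-1 (vertical axis) against cth-1 (horizontal axis) on the 22 arrays, coloured by group, with isp-1 replicate 1 and wild type replicate 3 marked. Right, the log2 difference of the tested genes within 10 places of argk-1 in the order of protein-coding genes, for nuo-6 ced-4 minus nuo-6 and nuo-6 minus wild type; the largest differences are those of cth-1 (5.47 and -4.19) and argk-1 (5.02 and -2.68).

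The neighbourhood of argk-1 was looked at further, after its values were seen. Of the 20 protein-coding genes within 10 places on either side, 7 were tested. In nuo-6 ced-4 relative to nuo-6, 4 of the 7 were higher and 0 were lower, where 11.2% of all tested probe sets were called higher. These were cth-1, str-7 (1.91, adjusted p = 2.68e-07), F22B8.7 (2.24, adjusted p = 1.19e-06) and skr-3, a Skp1-related gene (0.75, adjusted p = 0.00299), of which cth-1, str-7 and F22B8.7 are the 3 genes next to argk-1 on 1 side. In nuo-6 against wild type 2 of the 7 were lower, cth-1 and F44G3.7 (-1.34, adjusted p = 0.0287), and 1 was higher, clc-11 (1.24, adjusted p = 0.0227). Of all probe sets 14.8% were lower and 18% higher in that comparison. Values of str-7 were low, with group means from 2.31 in nuo-6 to 4.23 in nuo-6 ced-4. Only the double mutant arrays of str-7 reached the filter level of 3.68, and no array of another group was above 3.09. The gene was thus tested because it was high in the double mutants, which left it little room to be called lower there. Its call is no independent part of the 4 of 7, nor of the run of 3 genes next to argk-1.

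**Figure D5:**
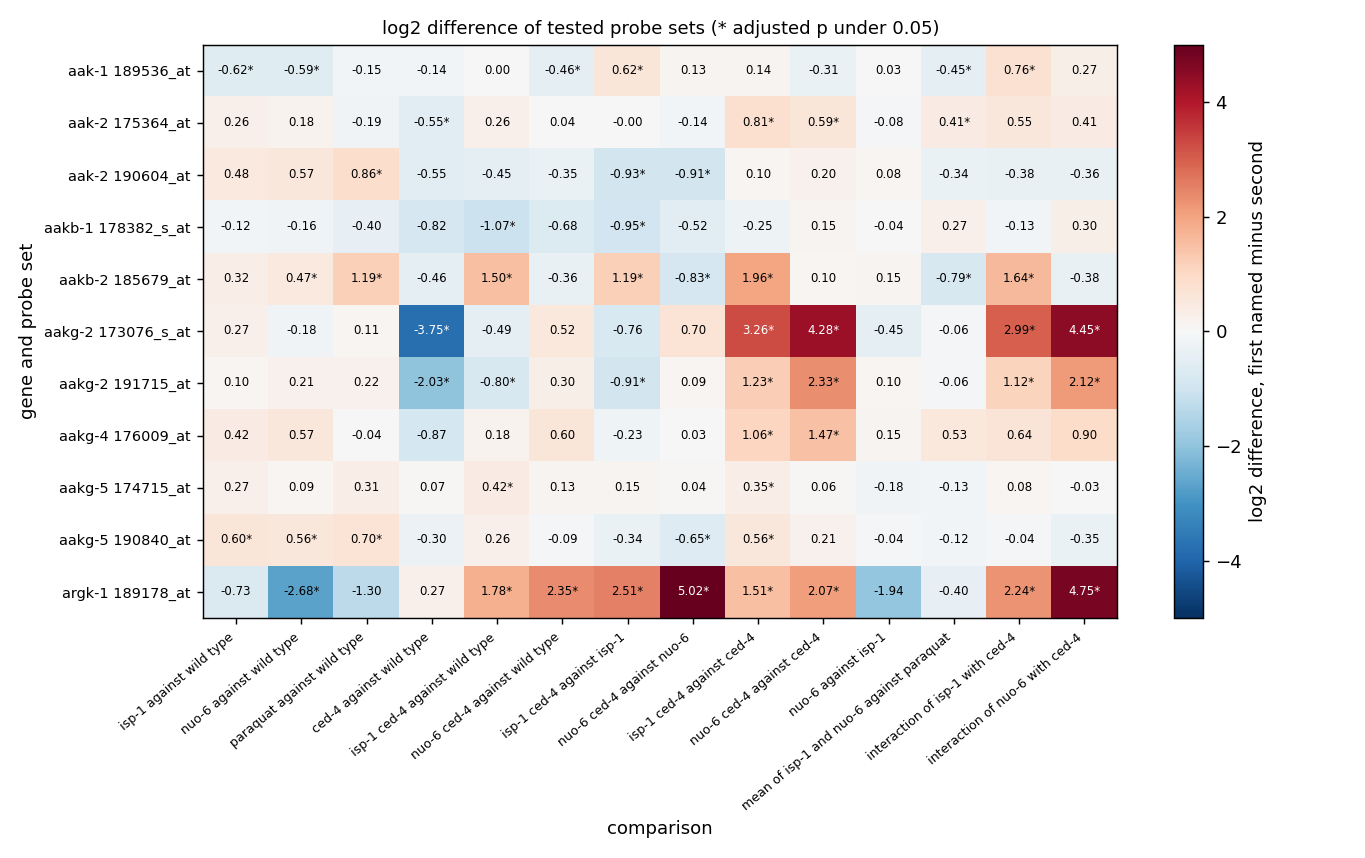
Log2 differences of the 11 tested probe sets (rows) in the 14 comparisons (columns), first named group minus second, with colour for size and a star where the adjusted p was under 0.05. The deepest colours are those of argk-1 and aakg-2, and the columns with ced-4 as the second group hold positive values in most rows.

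Set against all probe sets tested, between 0 and 6 of the 8 genes were called in a comparison, and their counts are read against the share of all probe sets called that way. In isp-1 0 members were higher (12.3% of all probe sets were) and 1 was lower (9.63%), 22% being called either way. In nuo-6 1 was higher (18%) and 2 were lower (14.8%), with 32.8% either way. Under paraquat 1 was higher (26.4%) and 0 were lower (15.1%), with 41.5% either way. In ced-4 0 were higher (6.51%) and 2 were lower (9.3%), with 15.8% either way. In isp-1 ced-4 relative to wild type 3 were higher (29.2%) and 1 was lower (21.1%), with 50.4% either way, and in nuo-6 ced-4 1 was higher (14.2%) and 1 lower (17.8%), with 32% either way. Nothing is read from these counts.

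The double mutants were also compared with their parents. In isp-1 ced-4 relative to isp-1, 3 of 8 members were higher (16%) and 1 was lower (17.2%), with 33.2% either way, and in nuo-6 ced-4 relative to nuo-6, 1 was higher (11.2%) and 1 lower (18.7%), with 29.9% either way. Relative to the ced-4 single mutant, 6 of 8 were higher in isp-1 ced-4 (31.2%) and 0 lower (20.9%), with 52.2% either way, and 4 of 8 were higher in nuo-6 ced-4 (8.88%) and 0 lower (8.47%), with 17.3% either way. The median difference of the members was 0.93 in the first and 0.37 in the second, beside 0.14 and -0.03 over all 9647 genes. With 1 array left out, 3 or 4 members were called in the first and 2 or 3 in the second. Both comparisons use the same ced-4 arrays. The members aakb-2 and aakg-4 had 0 of 3 ced-4 arrays at or above the filter level and passed it through other groups. That left them little room to be called lower than ced-4. The filter also left out aakg-3, which without it had -0.68 in isp-1 ced-4 relative to ced-4 and -0.99 for the interaction of isp-1. The counts of 0 lower are limited by this. For the interaction, 4 of 8 were higher with isp-1 (8.99%) and 0 lower (9.7%), with 18.7% either way, and 2 of 8 were higher with nuo-6 (5.87%) and 0 lower (4.98%), with 10.9% either way. The mean of isp-1 and nuo-6 was above paraquat in 1 member (21.1%) and below it in 2 (25.5%), with 46.5% either way. Between nuo-6 and isp-1 limma called 0 of 8 members and 0.00791% of all probe sets, 1 of 12639. An unadjusted p under 0.05 was found for 1 member and 1390 probe sets.

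Genes that regulate AMPK were looked at next. Of 7 listed, 5 were tested: par-4, the worm LKB1 kinase, its partners strd-1 and mop-25.2, calmodulin (cmd-1) and the folliculin gene flcn-1, a negative regulator of AMPK. In isp-1 ced-4 4 of the 5 were higher than in wild type, where 29.2% of all probe sets were, with flcn-1 at 10.22 against 9.04 (1.18, adjusted p = 5.95e-06), mop-25.2 at 9.30 against 8.83 (0.47), strd-1 at 8.40 against 7.93 (0.47) and par-4 at 8.30 against 7.79 (0.51). The pseudokinase gene strd-1 was higher in isp-1 (0.40, adjusted p = 0.0395), in nuo-6 (0.45, adjusted p = 0.0156) and under paraquat (0.64, adjusted p = 0.000878). In nuo-6 ced-4 flcn-1 was higher (0.80, adjusted p = 0.000483) and cmd-1 lower (-0.40, adjusted p = 0.0183). In ced-4 alone limma called 0 of the 5, and 1 had an unadjusted p under 0.05.

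The related kinases par-1, kin-29 and unc-82 changed in several groups. All 3 were called in ced-4 against wild type, where 15.8% of all probe sets were, with kin-29 higher by 0.67 (adjusted p = 0.0491), unc-82 higher by 0.76 (adjusted p = 0.0289) and par-1 at -0.79 (adjusted p = 0.019). The polarity kinase gene par-1 stood at 7.95 in isp-1 ced-4, against 5.47 in ced-4 and 6.26 in wild type, differences of 2.48 (adjusted p = 2.05e-07) and 1.69 (adjusted p = 7.36e-06). In isp-1 ced-4, 14 of 16 oocyte markers were also higher than in wild type. Under paraquat, where 16 of 16 oocyte markers were higher, par-1 was not called. In ced-4, where par-1 was lower, 0 of 16 oocyte markers were called higher and 0 lower. The part of the oocyte markers in the par-1 result was not tested. In nuo-6 ced-4 par-1 was lower than in wild type, with a difference of -0.70 (adjusted p = 0.02).

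Of 17 targets and effectors of AMPK 16 were tested. Relative to wild type 0 of 16 were called by limma in isp-1 (22% of all probe sets were) and 0 in ced-4 (15.8%), where 1 and 4 had an unadjusted p under 0.05. In nuo-6 1 was higher, the HMG-CoA reductase homologue hmgr-1 (0.80, adjusted p = 0.00236), and 2 were lower, the lipase gene atgl-1 (-0.44, adjusted p = 0.0283) and the Rag GTPase gene ragc-1 (-0.27, adjusted p = 0.0414), beside 18% of all probe sets called higher and 14.8% lower. Under paraquat atgl-1 (0.61, adjusted p = 0.00263) and the Rag GTPase gene raga-1 (0.55, adjusted p = 0.0311) were higher (26.4% of all probe sets were), and the mean of isp-1 and nuo-6 lay below paraquat for atgl-1 by a difference of -0.85 (adjusted p = 0.000126). In isp-1 ced-4 7 of 16 were higher than in wild type (29.2%) and 1 was lower (21.1%). The lower one was pod-2, which encodes acetyl-CoA carboxylase, the classical AMPK substrate in fat synthesis, at 7.94 against 8.78 (-0.84, adjusted p = 0.000365). Among the higher were nhr-49, a nuclear receptor of fat metabolism (0.68), hmgr-1 (0.69) and drp-1, the dynamin of mitochondrial fission (0.66). In nuo-6 ced-4 1 was higher (14.2%), hmgr-1 (0.86, adjusted p = 0.00128), and 4 were lower (17.8%), among them ragc-1 (-0.47, adjusted p = 0.0016) and raga-1 (-0.82, adjusted p = 0.00384).

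A pair of genes like phosphagen kinases, F46H5.3 and ZC434.8, were tested. F46H5.3 was higher in isp-1 (0.40, adjusted p = 0.0261) and nuo-6 (0.51, adjusted p = 0.00481), where argk-1 had negative differences, and it was lower in nuo-6 ced-4 than in nuo-6 by a difference of -0.86 (adjusted p = 0.000113), where argk-1 was higher. ZC434.8 was higher in nuo-6 (0.40, adjusted p = 0.0291), lower under paraquat (-0.45, adjusted p = 0.0126) and higher in nuo-6 ced-4 than in ced-4 (0.76, adjusted p = 0.00147). No probe set was set against another for its level.

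Of 10 genes for adenylate enzymes and ADP/ATP carriers, 8 were tested. The adenylate kinase gene F38B2.4, whose product makes AMP and ATP from ADP, was higher in isp-1 (0.81, adjusted p = 0.00128) and nuo-6 (1.23, adjusted p = 1.7e-05), at 10.35 and 10.77 against 9.55 in wild type. It was lower in each double mutant than in its single mutant, with differences of -1.09 in isp-1 ced-4 (adjusted p = 0.00023) and -0.82 in nuo-6 ced-4 (adjusted p = 0.00108). The AMP deaminase gene ampd-1 was lower in nuo-6 (-0.53, adjusted p = 0.0107), under paraquat (-0.91, adjusted p = 8.77e-05) and in isp-1 ced-4 (-0.72, adjusted p = 0.000652). The carriers ant-1.3 and ant-1.4 fell furthest, by 3.73 and 3.63 on the log2 scale under paraquat and by 3.41 and 4.12 in isp-1 ced-4 relative to wild type, in the groups in which 14 of 15 sperm markers were lower. The part of the sperm markers in this was not tested.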

How the data were processed

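The 22 arrays carried biotin-labelled cRNA copied from the 3' end of total RNA, per the labels' protocols. The authors deposited 1 table of log2 expression values which per the submitters' processing notes come from GCRMA, with a version not given in the sources used here. The log base was read from the range of the values. GCRMA corrects background by probe sequence and normalizes by quantiles, so values near the table median are uncertain and a shift of most transcripts together would be hidden. Control probe sets, 77 of 22625, were left out. Gene names came from the platform annotation, brought up to date through the entrez ID, and where a gene had several probe sets the one of highest mean stood for it. One model with a mean for each of the 7 groups was fitted in limma 3.58.1 under R 4.3.3, using default lmFit and eBayes options, with two-sided tests and Benjamini-Hochberg adjustment within each of 14 comparisons.

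Members, lists and the rule for named genes were chosen with earlier results of these data known. The rule took every member, up to 4 genes with the smallest p of each pathway list in a comparison, and the 5 genes of highest Pearson r for the 3 members with the widest range of group means. The samples are biological replicates by their labels, which do not say whether cultures were separate, so p-values measure the spread between these samples. Precision is limited by the number of arrays, which have no read depth. In simulated arrays, 200 of 12639 probe sets were given a change of 0.5, 1, 2 or 4 on the log2 scale. With the array numbers of nuo-6 against wild type, 20%, 66%, 100% and 100% of these changes were recovered. With those of ced-4 against wild type the shares were 20%, 60%, 88% and 100%. For the interaction of nuo-6 with ced-4 they were 0%, 46%, 80% and 98%. Both comparisons with wild type have 3 arrays against 4, so nothing is read from their different shares. In the data 4150, 1999 and 1372 probe sets were called in these comparisons, far more than 200. The shares thus hold for the simulated arrays and do not say how many real changes were found. Alternatives were another filter (5 on 3 arrays), no filter, cyclic loess, median centring, replicate number as a block, only the groups compared, trend and robust options, other probe sets and each array left out. Leaving out wild type replicate 1 and isp-1 replicate 1 together was added after seeing the data. No coordinates are printed, and the order of genes was taken from the WBcel235 annotation.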

Additional observations from a re-analysis of the deposited data

Results flagged for a closer look

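Of the 15 probe sets looked at in the 4 wild type arrays, 2 had 1 array far from the other 3, where chance gives about 1 in 20. For argk-1, wild type replicate 3 read 6.17, against 8.66, 8.98 and 8.79 on the others, and its gap was 0.888 of the whole range. For aakg-4 the same array read 5.20, against 3.14, 3.35 and 3.34, with a gap of 0.899 of the range. The array is low for one gene and high for the other.

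The effect of a mitochondrial mutation differed with the ced-4 genotype for several members. For isp-1 the difference between the effects was 2.99 for aakg-2 (1.12 in its second probe set), 2.24 for argk-1, 1.64 for aakb-2 and 0.76 for aak-1. For nuo-6 it was 4.75 for argk-1 and 4.45 for aakg-2 (2.12 in its second probe set). These values are positive, that is, the mitochondrial mutation went with a higher value relative to its control in ced-4 animals than in animals with a normal ced-4. The member aakg-3, below the filter, went the other way, with -0.99 for isp-1 when no filter was used. The isp-1 values of argk-1 and aak-1 (adjusted p = 0.0497 and 0.0355) were lost in limma when single arrays were left out.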

How the results depend on the processing

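Of 112 results of members, 38 were called. Of these, 18 were called in the same direction under every alternative in which the gene was tested, other probe sets aside. The filter of 5 did not test aakb-2 or aakg-4, so the called results of aakb-2 among the 18 were not put to it. Another probe set turned 3 results round: aak-2 between the mean of isp-1 and nuo-6 and paraquat (-0.34 against 0.41), aak-2 under paraquat (0.86 against -0.19) and aakg-5 in nuo-6 ced-4 relative to nuo-6 (-0.65 against 0.04). Counts of members called moved by over 1.5 times as follows. Cyclic loess gave 2 for the interaction of isp-1 (4 in the main setting), 1 for nuo-6 ced-4 against wild type (2) and 3 for paraquat (1). Median centring and the trend and robust options each gave 2 for paraquat. No filter gave 1 for nuo-6 ced-4 against wild type, and the filter of 5 gave 1 for nuo-6 ced-4 relative to nuo-6 (2), since aakb-2 was not tested there. Fitting only the groups compared gave 1 for ced-4 (2), 2 for the interaction of isp-1, 0 for isp-1 (1), 1 for isp-1 ced-4 against wild type (4), 1 for the mean of isp-1 and nuo-6 against paraquat (3) and 1 for nuo-6 ced-4 against wild type. Leaving out wild type replicate 1 and isp-1 replicate 1 together, chosen after seeing the data, gave 5 for ced-4, 2 for the interaction of isp-1, 1 for nuo-6 against isp-1 (0) and 3 for paraquat. The cause of these moves was not tested.

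With 1 array left out the counts lay between 1 and 5 for ced-4, 2 and 4 for the interaction of isp-1, 2 and 2 for the interaction of nuo-6, 1 and 3 for isp-1, 2 and 3 for nuo-6, 1 and 2 for paraquat, 3 and 5 for isp-1 ced-4 and 1 and 3 for nuo-6 ced-4 against wild type. They lay between 2 and 4 for isp-1 ced-4 against isp-1, 3 and 4 against ced-4, 2 and 2 for nuo-6 ced-4 relative to nuo-6, 2 and 3 against ced-4, 1 and 3 for the mean of isp-1 and nuo-6 against paraquat and 0 and 1 for nuo-6 against isp-1. The shared replicate numbers did not pair the arrays: of 63 pairs of the same number, 12 had deviations from their group means that correlated above 0.1, with a median of -0.01. With the replicate number as a block the counts were 1 for ced-4, 2 for the interaction of isp-1 and 1 for nuo-6 ced-4 against wild type. Scaling moved the median over all probe sets: under paraquat it was 0.13, against -0.02 after loess and 0.25 after centring, and in isp-1 ced-4 against ced-4 it was 0.17, against 0.01 and 0.39.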

Other observations

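The pair aakg-2 and aak-2 lie 9 places apart in the order of protein-coding genes of the WBcel235 annotation. Of the 20 genes within 10 places of aakg-2, 6 were tested and 1 of them, aak-2 itself, was lower in ced-4 than in wild type. Of all tested probe sets 9.3% were. In isp-1 ced-4 against ced-4, 2 of the 6 were higher, aak-2 (0.81) and T20F7.1 (0.98), and 1 was lower, sto-5 (-0.69). Of all probe sets 31.2% were higher and 20.9% lower in that comparison, so nothing is read from these counts. In nuo-6 ced-4 against ced-4, 2 were higher, aak-2 (0.59) and got-1.2 (0.65), where 8.88% of all probe sets were.

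Without the filter on low values, aakg-3 was lower in isp-1 ced-4 than in ced-4 by a difference of -0.68 (adjusted p = 0.00193 in limma) and than in isp-1 by -0.64 (adjusted p = 0.00644), at a mean of 2.52 against 3.20 and 3.16. Its interaction of isp-1 with ced-4 was -0.99 (adjusted p = 0.00485). All of these lie below the table median, and the choice to give them was made after they were seen.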
